A study of Mus musculus with 18 samples.

Results

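Macrophages and other leukocytes of the ventricle were followed through 10 marker genes, Cd68, Csf1r, Cd163, Mrc1, Lyz2, C1qa, C1qb, C1qc, Ptprc and Lsp1. They were chosen by name as markers of resident and infiltrating immune cells, and all 10 were found among the 23457 genes of the count table. Hearts came from male C57BL/6 mice aged 17 weeks that had received a recombinant adeno-associated virus of serotype 6 into the tail vein at 8 weeks of age, 9 weeks earlier. The vector carried phospholipase C beta 1b (rAAV6-PLCb1b), the splice variant beta 1a (rAAV6-PLCb1a), or a promoter without a protein product (rAAV6-blank), with 6 hearts in each of the 3 groups. No uninjected hearts were analysed here, so a response shared by all 3 vectors cannot be told apart from the baseline, and the promoter is not named in the sources used here. The tissue is labelled biventricle, while the methods of the study describe the left ventricle. RNA was depleted of ribosomal RNA and sequenced as 1 strand-specific library per heart. The count table held between 13246339 and 24155465 counts per heart, of which 3908354 to 7591558 lay on nuclear genes, and mitochondrial genes took 67.1% to 71.9% of the counts.

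Macrophages are the most abundant leukocytes of the healthy adult heart. They settle between the cardiomyocytes, depend on signalling through the receptor for colony stimulating factor 1, clear debris and dying cells, and supply the first component of the classical complement pathway. Monocytes, neutrophils and lymphocytes are scarce in healthy myocardium and enter it after injury or in inflammation. The comparisons asked whether hearts transduced with either splice variant differed in these marker genes from hearts given the blank vector, and from each other.

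None of the 10 genes differed between groups at a false discovery rate (FDR) below 0.1. The test was the quasi-likelihood test of edgeR on the whole table of 12281 genes that passed a filter on low counts, all 10 marker genes among them, with Benjamini-Hochberg adjustment over all 12281. In PLCb1b against blank edgeR called 0 of 10 genes, beside 12 genes or 0.0977% of all tested, and 0 of 10 had an unadjusted p below 0.05. In PLCb1a against blank it called 0 of 10, beside 10 genes or 0.0814% of all tested, and 2 of 10 had an unadjusted p below 0.05. In PLCb1b against PLCb1a it called 0 of 10, beside 1 gene or 0.00814% of all tested, and 1 of 10 had an unadjusted p below 0.05. DESeq2 called 0, 1 and 0 of the 10 genes in the same order, the 1 being Lsp1, and limma on log2(FPKM + 0.1) called 0, 0 and 0. In PLCb1a against blank DESeq2 gave no adjusted p for Cd68 and Ptprc, so it could not call them there. Their unadjusted DESeq2 p was 0.0985 and 0.203. The shares of all tested genes with an unadjusted p below 0.05 were 3.95% higher and 3.48% lower in PLCb1b against blank, 4.52% higher and 4.29% lower in PLCb1a against blank, and 2.25% higher and 2.31% lower in PLCb1b against PLCb1a. Among the marker genes these were 0 higher and 0 lower, 1 higher and 1 lower, and 0 higher and 1 lower. The ranges of the 6 hearts overlapped for all 10 genes in every comparison, where 0.48%, 0.594% and 0.179% of all tested genes had ranges that did not overlap. The 2 comparisons with blank share the same 6 blank hearts.

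The median log2 fold change of the 10 genes was -0.04 in PLCb1b against blank, -0.09 in PLCb1a against blank and 0.03 in PLCb1b against PLCb1a, and over all tested genes it was 0.00 in each. With 1 heart left out these medians ran from -0.10 to 0.02, from -0.12 to -0.03 and from -0.04 to 0.07, so the sign of the first and the third depended on single hearts. Fitted log2 fold changes ran from -0.16 to 0.19, from -0.21 to 0.33 and from -0.20 to 0.14. The 95% confidence intervals extended between 0.16 and 0.28 on either side of the estimate on the log2 scale. A call at FDR below 0.1 over 12281 genes needed more than an interval that leaves out 0, as Lsp1 and C1qc in PLCb1a against blank had such intervals and were not called. In bulk tissue, fewer cells of a type and less RNA per cell cannot be told apart.

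**Figure D1:**
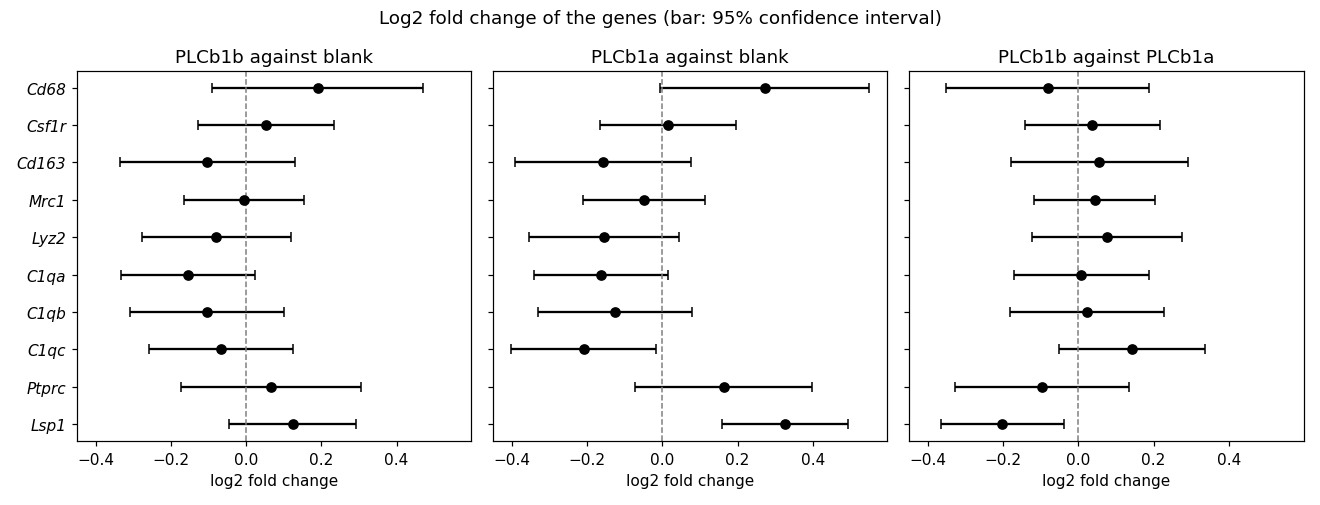
Log2 fold change of each gene (horizontal axis) in PLCb1b against blank, PLCb1a against blank and PLCb1b against PLCb1a, with points for the estimate and bars for the 95% confidence interval, 6 hearts per group. The intervals of Lsp1 and C1qc in PLCb1a against blank, and of Lsp1 in PLCb1b against PLCb1a, leave out 0, and all other intervals include it.

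Levels between genes are compared in FPKM as deposited, which scales fragments by exon length and by library. Lyz2 had the highest mean level of the 10, 43.8 FPKM ± 7.30 (SD, n = 18), above 96.4% of the tested genes that also had an FPKM. The 3 C1q genes followed, with C1qc at 15.6 FPKM ± 2.56, C1qa at 15.3 ± 2.14 and C1qb at 11.1 ± 1.75 (SD, n = 18). C1qc and C1qa did not differ beyond their spread, since C1qc was the higher of them in 10 of 18 hearts, and C1qa was above C1qb in 18 of 18 hearts. Csf1r at 6.14 FPKM ± 0.930, Mrc1 at 6.11 ± 0.769 and Lsp1 at 5.82 ± 0.644 (SD, n = 18) could not be ordered, as Csf1r exceeded Mrc1 in 8 of 18 hearts and Mrc1 exceeded Lsp1 in 10 of 18. The lowest means were those of Cd163 at 2.48 FPKM ± 0.438, Cd68 at 1.87 ± 0.370 and Ptprc at 1.27 ± 0.219 (SD, n = 18). Cd163 was above Cd68, and Cd68 above Ptprc, in 17 of 18 hearts, with overlapping ranges.

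**Figure D2:**
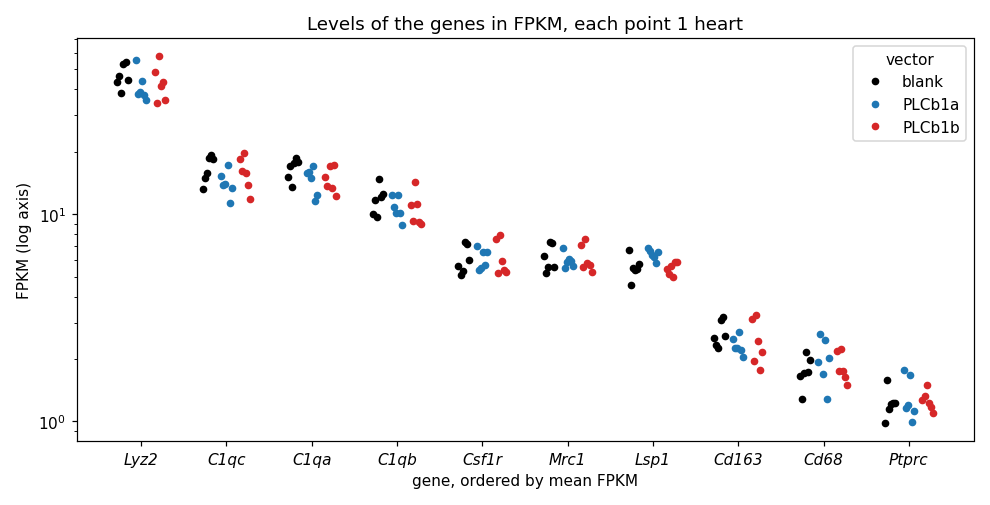
FPKM of the 10 genes (vertical log axis) in each of the 18 hearts, with the genes ordered by mean FPKM and the points coloured by vector. Lyz2 lies above all other genes in every heart, between 34.4 and 57.7 FPKM, and the 3 vector groups overlap for each gene.

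Ptprc encodes CD45, the receptor tyrosine phosphatase carried by nucleated cells of the blood lineages. Values within a gene are given as CPM, library-scaled counts after normalization by the trimmed mean of M values, with the lowest, median and highest heart. Ptprc measured 4.93, 5.76 and 7.79 CPM in blank hearts, 5.41, 6.02 and 8.46 in PLCb1a hearts, and 5.65, 6.11 and 6.95 in PLCb1b hearts. Blank heart 30 and PLCb1a hearts 7 and 13 were high, and the groups overlapped. The log2 fold change was 0.07 (SE 0.116) in PLCb1b against blank and 0.16 (SE 0.115) in PLCb1a against blank, with edgeR FDR of 0.923 and 0.721. The second of these was 0.06 without PLCb1a heart 7, 0.26 without blank heart 30 and 0.07 on log2(FPKM + 0.1), and the first ran from 0.03 to 0.16 with 1 heart left out.

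Lsp1, an actin-binding protein of leukocytes that is also made by endothelial cells, had the lowest p of the 10 genes. Its CPM was 7.85, 9.31 and 11.4 in blank hearts, 10.6, 11.9 and 12.8 in PLCb1a hearts, and 8.93, 10.2 and 12 in PLCb1b hearts. All 6 PLCb1a hearts lay above the blank median and 4 of 6 above every blank heart, but blank heart 26 reached into the PLCb1a range. In PLCb1a against blank the log2 fold change was 0.33 (SE 0.0810, 95% interval 0.16 to 0.49), a 1.25-fold higher mean, with an unadjusted edgeR p of 0.000435 that ranked 35 of 12281 and an FDR of 0.149, which misses the threshold. DESeq2 gave the same comparison a log2 fold change of 0.33 and an adjusted p of 0.0607, and limma on log2(FPKM + 0.1) gave 0.21 and 0.593. The range of the FDR of Lsp1 over all settings other than leaving out a heart was 0.0607 to 0.593. In PLCb1b against PLCb1a it was -0.20 (SE 0.0796), lower than the PLCb1a median in 5 of 6 hearts, with an unadjusted edgeR p of 0.0174 and an FDR of 1. In PLCb1b against blank it was 0.12 (SE 0.0822, edgeR FDR 0.769) from counts and -0.02 from log2(FPKM + 0.1). The gene lies at chr7:142460812-142494868 on the plus strand of mm10, with 6 transcripts and 13 exon blocks in the deposited annotation.

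Csf1r is the receptor tyrosine kinase for colony stimulating factor 1 and interleukin 34, on which tissue macrophages depend. It measured 17.2, 18.8 and 22.5 CPM in blank hearts, 17.5, 19.9 and 21.7 in PLCb1a hearts, and 16.6, 19.0 and 25.0 in PLCb1b hearts. PLCb1b hearts 4 and 8 were above every blank and PLCb1a heart, while PLCb1b heart 6 was the lowest of all 18, so the groups overlapped. The log2 fold change was 0.05 (SE 0.0877) in PLCb1b against blank and 0.02 (SE 0.0880) in PLCb1a against blank, with edgeR FDR of 0.922 and 0.978. On log2(FPKM + 0.1) the fold changes were 0.0186 and 0.0084.

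Cd163 and Mrc1 are endocytic receptors of resident macrophages, the first for complexes of haptoglobin with haemoglobin and the second for mannose-bearing glycoproteins. Cd163 measured 9.25, 10.4 and 11.9 CPM in blank hearts, 7.75, 9.63 and 11 in PLCb1a hearts, and 7.28, 9.58 and 13 in PLCb1b hearts. PLCb1b hearts spanned both the lowest value, in heart 16, and the highest, in heart 8. Mrc1 measured 24.8, 28.5 and 32.7 CPM in blank hearts, 25.1, 27.7 and 31.0 in PLCb1a hearts, and 24.9, 27.5 and 34.2 in PLCb1b hearts, again with heart 8 of the PLCb1b group highest. The edgeR FDR was 0.872 and 0.727 for Cd163 and 0.996 and 0.902 for Mrc1 in PLCb1b and PLCb1a against blank, at log2 fold changes of -0.10, -0.16, -0.01 and -0.05.

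Cd68 encodes a heavily glycosylated protein of macrophage lysosomes and endosomes, and had the fewest counts, between 22 and 57 per heart. It measured 1.73, 1.88 and 2.46 CPM in blank hearts, 1.76, 2.28 and 2.91 in PLCb1a hearts, and 1.79, 2.31 and 2.51 in PLCb1b hearts. Blank heart 33 stood above the other 5 blank hearts, and the groups overlapped. The log2 fold change was 0.19 (SE 0.137) in PLCb1b against blank and 0.27 (SE 0.136) in PLCb1a against blank, with edgeR FDR of 0.796 and 0.584, but 0.07 and 0.16 on log2(FPKM + 0.1). These were the widest intervals of the 10 genes.

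Lyz2 encodes lysozyme M, a bacterial cell wall hydrolase secreted by macrophages and granulocytes. It measured 33.5, 39.3 and 44.2 CPM in blank hearts, 30.1, 34 and 44.6 in PLCb1a hearts, and 30.2, 36.7 and 48.6 in PLCb1b hearts. PLCb1a heart 7 and PLCb1b heart 8 were the highest of their groups, and the groups overlapped. The log2 fold change was -0.08 (SE 0.0967) in PLCb1b against blank and -0.16 (SE 0.0971) in PLCb1a against blank, with edgeR FDR of 0.888 and 0.676. Its near-identical neighbour Lyz1 held 3 to 15 counts per heart, and how the counting split reads between the copies is not given in the sources used here, so the level of Lyz2 is uncertain to that extent.

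C1qa, C1qb and C1qc encode the chains of C1q, the recognition molecule of the classical complement pathway, which tissue macrophages produce. The 3 genes lie side by side on the minus strand within chr4:136880145-136898844 of mm10, with 3 exon blocks each. C1qa measured 11, 13.4 and 14.1 CPM in blank hearts, 9.49, 12.2 and 13.4 in PLCb1a hearts, and 10.1, 11.3 and 14.4 in PLCb1b hearts. C1qb measured 8.18, 10.1 and 12.3 CPM in blank hearts, 7.44, 9.48 and 10.5 in PLCb1a hearts, and 7.99, 9.04 and 12 in PLCb1b hearts. The groups overlapped for both, with PLCb1a heart 21 the lowest of all 18 for each. C1qc measured 10.8, 12.9 and 13.9 CPM in blank hearts, 9.75, 10.8 and 13.5 in PLCb1a hearts, and 9.24, 12.4 and 14.7 in PLCb1b hearts. Only PLCb1a heart 13 lay above the blank median and 3 of 6 PLCb1a hearts lay below every blank heart. The log2 fold change of C1qc in PLCb1a against blank was -0.21 (SE 0.0940, 95% interval -0.40 to -0.02), with an unadjusted edgeR p of 0.0349 and an FDR of 0.524. In PLCb1b against blank it was -0.07 (SE 0.0928), with an edgeR FDR of 0.906. For C1qa it was -0.16 in PLCb1b against blank and -0.16 in PLCb1a against blank, with edgeR FDR of 0.726 and 0.614. For C1qb the values were -0.10 and -0.13, with edgeR FDR of 0.849 and 0.761.

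**Figure D3:**
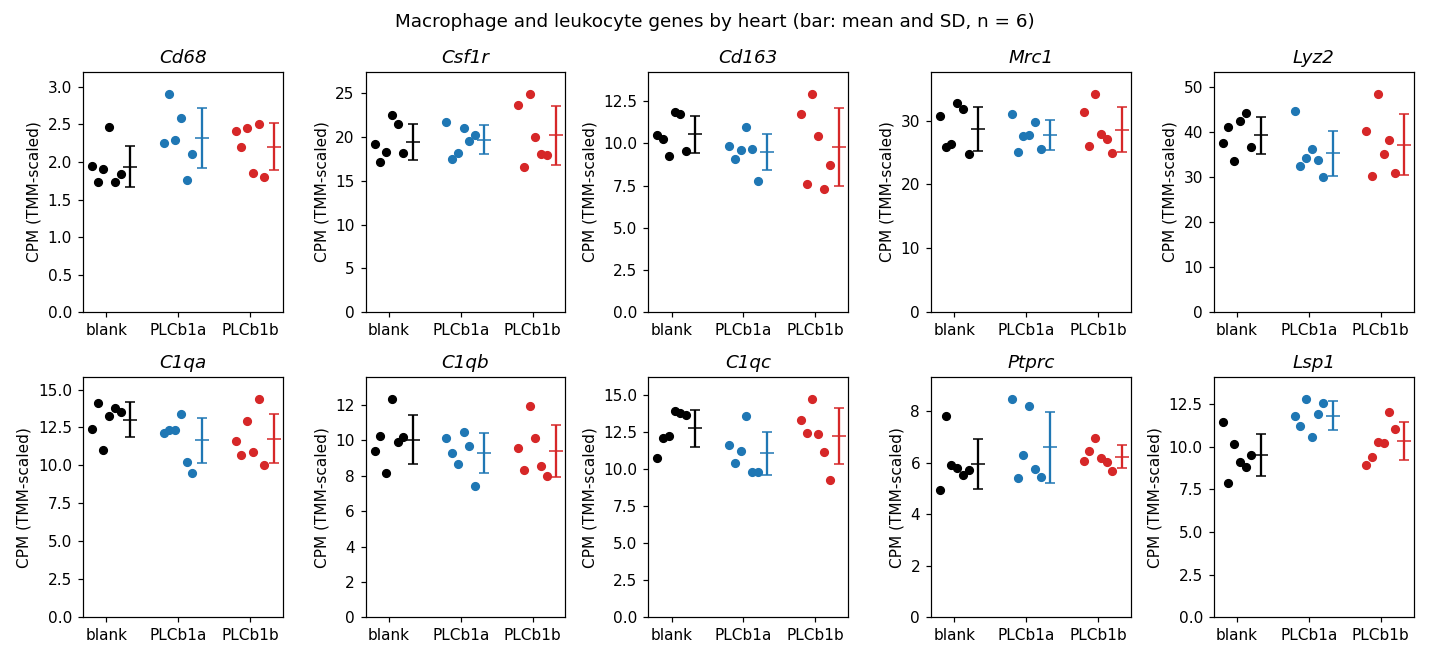
CPM of each gene (vertical axis, from 0) in each heart, by vector group, with the group mean and SD beside the points (n = 6). The 3 groups overlap in every panel, and for Lsp1 all 6 PLCb1a hearts lie at 10.6 CPM or above, where 1 of 6 blank hearts does.

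While the groups did not separate, some pairs of the genes were correlated from heart to heart. Of the 45 pairs of genes, 36 had a positive Pearson correlation of log2 CPM across the 18 hearts after the group means were removed, with a median r of 0.46. A permutation test with 100000 permutations of hearts within groups gave 14 pairs a two-sided p, adjusted over the 45 pairs, below 0.05, and 15 by Spearman's rho. Among all 75405340 pairs of the 12281 tested genes, computed in the same way after the data were seen, 49.9% had a positive r and the median r was 0.00. The lowest r among the 14 pairs was 0.52, a size that 5.16% of all pairs and 21 of the 45 reached with either sign. The highest r between marker genes was that of Csf1r with Mrc1 (n = 18, r = 0.85, permutation p = 8e-05, adjusted p = 0.0036; rho = 0.83, permutation p = 6e-05, adjusted p = 0.0027). Without the 2 hearts farthest from the median of Csf1r its r was 0.76. Csf1r with Cd163 had r = 0.80 (permutation p = 0.00107, adjusted p = 0.00802) and rho = 0.79 (permutation p = 0.00168), and r = 0.60 without 2 hearts. Cd163 with C1qb had r = 0.79 (permutation p = 0.00021, adjusted p = 0.00472) and rho = 0.82 (permutation p = 0.00042), and r = 0.76 without 2 hearts. Mrc1 with Lyz2 had r = 0.79 (permutation p = 0.00042, adjusted p = 0.0063) and rho = 0.77 (permutation p = 0.00093), and r = 0.70 without 2 hearts. The receptors Csf1r, Cd163 and Mrc1 varied with each other, with Lyz2 and with C1qb past the adjusted threshold by Pearson's r, and by Spearman's rho in each case but Csf1r with C1qb (adjusted permutation p = 0.0776). Without 2 hearts r fell from 0.65 to 0.42 for Mrc1 with C1qb, from 0.63 to 0.49 for Csf1r with C1qb and from 0.74 to 0.57 for Csf1r with Lyz2, and it was 0.74, 0.79 and 0.68 for Cd163 with Mrc1, Cd163 with Lyz2 and Lyz2 with C1qb.

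Among the C1q chains, C1qb and C1qc had r = 0.69 (n = 18, permutation p = 0.00482, adjusted p = 0.0271; rho = 0.62, permutation p = 0.0132) and r = 0.66 without 2 hearts. C1qa had r of 0.54 with C1qb and 0.53 with C1qc, at adjusted permutation p of 0.0719 and 0.0912. These fell to 0.32 and 0.33 without PLCb1a heart 21 and PLCb1b heart 17, and were 0.64 and 0.66 on log2(FPKM + 0.1), at adjusted permutation p of 0.0165 and 0.0149. C1qc had r of 0.59, 0.62, 0.48 and 0.61 with Csf1r, Cd163, Mrc1 and Lyz2, not past the adjusted threshold by Pearson's r. By Spearman's rho it passed with Csf1r and Cd163 (adjusted permutation p = 0.0492 and 0.0321). On log2(FPKM + 0.1) C1qc passed in 8 of its 9 pairs by Pearson's r. Ptprc with Lyz2 had r = 0.52 (permutation p = 0.0146, adjusted p = 0.047; rho = 0.38, permutation p = 0.0966), which rests on 2 hearts, as r was 0.29 without them. Ptprc with C1qc had r = 0.54 (permutation adjusted p = 0.0454; rho = 0.59, permutation adjusted p = 0.0492), and r = 0.52 without 2 hearts. With group means kept, neither pair of Ptprc passed. Its r was 0.38 with Lyz2 and 0.35 with C1qc, at adjusted permutation p of 0.187 and 0.267. Lyz2 with C1qa had r = 0.65 (permutation adjusted p = 0.0394; rho = 0.62, permutation adjusted p = 0.0492), and r = 0.70 without 2 hearts. Lsp1 in CPM had a negative r with each of the other 9 genes, between -0.53 with C1qc and -0.05 with Mrc1, but on log2(FPKM + 0.1) its r was positive with 5 of the 9, between -0.30 and 0.29. Of these 9 pairs 0 passed the adjusted threshold by Pearson's r on either scale with group means removed. By Spearman's rho Lsp1 with C1qc had rho = -0.59 (permutation p = 0.0164, adjusted p = 0.0492), with r = -0.53 (permutation p = 0.0302, adjusted p = 0.0696). With group means kept, this pair passed the adjusted threshold by Pearson's r (-0.65, permutation adjusted p = 0.0484). It did not pass by Spearman's rho (-0.68, permutation adjusted p = 0.0612). Cd68 passed it in 0 of its 9 pairs in CPM and in 4 of 9 on log2(FPKM + 0.1), where 26 of all 45 pairs passed.

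**Figure D4:**
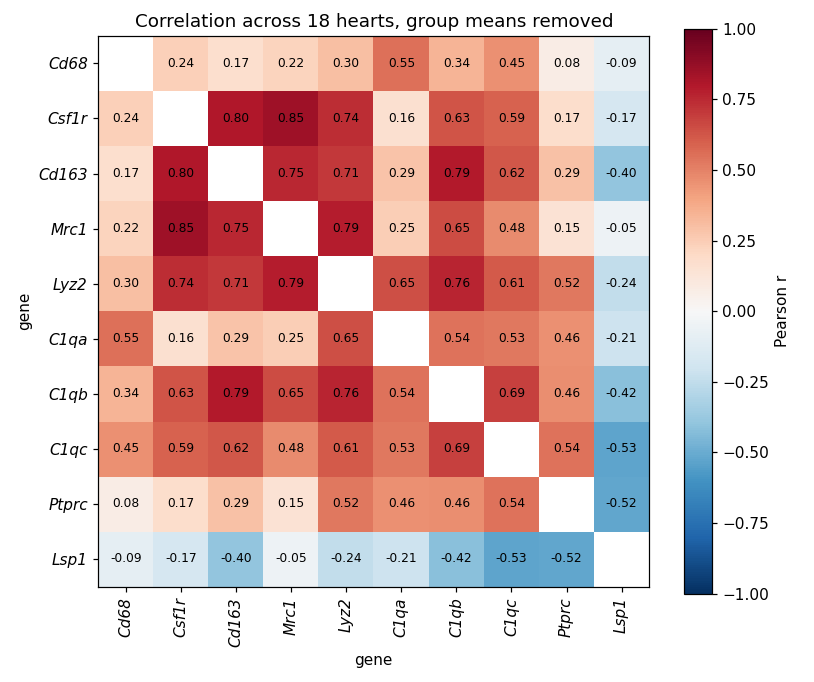
Pearson r of log2 CPM for each pair of genes across 18 hearts, group means removed, with the value printed in each cell and the colour scale from -1 to 1. Csf1r, Cd163, Mrc1, Lyz2 and C1qb have r between 0.63 and 0.85 with each other. C1qc has r of 0.59, 0.62, 0.48, 0.61 and 0.69 with them in that order, so they are not sharply set apart. The row of Lsp1 is negative in CPM, while on log2(FPKM + 0.1) 5 of its 9 values are positive.

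The 2 hearts farthest from the median, left out above, were PLCb1b hearts 4 and 8 for the pairs of Csf1r, PLCb1b hearts 8 and 16 for Cd163 with C1qb, and blank heart 33 and PLCb1b heart 8 for Mrc1 with Lyz2, so PLCb1b heart 8 was among them for each of these. PLCb1b heart 8 lay above its group mean for 9 of 10 genes, with a median deviation of 0.28 on the log2 scale. The other hearts with a median deviation past 0.1 in either direction were PLCb1b heart 4 (7 of 10 above, 0.13), heart 6 (3 of 10, -0.13) and heart 17 (1 of 10, -0.20), PLCb1a heart 7 (9 of 10, 0.11), heart 13 (9 of 10, 0.18) and heart 21 (2 of 10, -0.19), and blank heart 33 (8 of 10, 0.15) and heart 34 (6 of 10, 0.10). The labels name no batch, so no relation could be repeated within one. Of 20 relations of the 10 genes with the nuclear count total and with the mitochondrial share of the counts, computed after the data were seen, 0 had an adjusted permutation p below 0.05 and 2 an unadjusted one, both of C1qc. Its r was 0.49 with the nuclear total (n = 18, permutation p = 0.0386; rho = 0.57, permutation p = 0.0199; r = 0.45 without 2 hearts) and -0.54 with the mitochondrial share (permutation p = 0.032; rho = -0.55, permutation p = 0.0263; r = -0.72 without 2 hearts), both at an adjusted permutation p of 0.304. For some genes the r with the mitochondrial share depended on the 2 hearts farthest from its median, PLCb1a heart 21 and PLCb1b heart 16. Without them it moved from -0.04 to -0.73 for C1qa and from -0.28 to -0.60 for Cd68. It also moved from -0.20 to -0.45 for Lyz2 and from -0.24 to -0.46 for C1qb. The moves were smaller for Csf1r (-0.46 to -0.43), Cd163 (-0.34 to -0.40), Mrc1 (-0.17 to -0.26), Ptprc (0.05 to -0.07) and Lsp1 (0.26 to 0.19). Without blank heart 32 and PLCb1a heart 14, r with the nuclear total fell from 0.32 to 0.01 for C1qa. It fell from 0.30 to 0.07 for Cd68 and moved less for the other genes. With all hearts, r with the nuclear total was -0.47 for Lsp1 (permutation p = 0.0685). It was positive for each other gene, from 0.13 for Mrc1 to 0.49 for C1qc. The parts of the nuclear total and of the mitochondrial share in the relations between genes were not tested.

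The 250 bases before the start of Mrc1, Cd163, Lyz2 and C1qb are shown from RefSeq on GRCm38.p6, the assembly of mm10. These genes were picked from the correlations in these data. Of the 10 genes, 7 had a promoter in that table, and Csf1r, which was correlated with the genes shown, is not among them. The letters GAGGAA, which form the core of the sites bound by Spi1, the ETS-family regulator of myeloid genes, were searched on both strands and stand in capitals, as TTCCTC where they lie on the other strand. They occur in 7639 of 32851 promoter windows of this length, or 23.3%, and in 5 of the 8 windows of the 7 genes. A match describes the letters and not a bound site. Mrc1 held 3 matches, C1qb held 1, and Cd163 and Lyz2 held 0. The windows lie at chr2:14229164-14229413 on the plus strand for Mrc1, chr6:124304401-124304650 on the plus strand for Cd163, chr10:117282273-117282522 on the minus strand for Lyz2 and chr4:136886201-136886450 on the minus strand for C1qb, each written 5′ to 3′ along the gene.
Mrc1: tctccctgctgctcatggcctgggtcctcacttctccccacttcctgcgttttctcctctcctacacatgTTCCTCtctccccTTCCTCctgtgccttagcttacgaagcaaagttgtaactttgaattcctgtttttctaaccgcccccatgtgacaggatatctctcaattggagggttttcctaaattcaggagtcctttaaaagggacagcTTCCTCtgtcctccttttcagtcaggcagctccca
Cd163: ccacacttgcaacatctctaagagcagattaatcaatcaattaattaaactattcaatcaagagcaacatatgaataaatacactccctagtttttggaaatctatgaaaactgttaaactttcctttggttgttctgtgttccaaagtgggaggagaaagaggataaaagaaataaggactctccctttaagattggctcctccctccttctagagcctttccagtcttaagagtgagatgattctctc
Lyz2: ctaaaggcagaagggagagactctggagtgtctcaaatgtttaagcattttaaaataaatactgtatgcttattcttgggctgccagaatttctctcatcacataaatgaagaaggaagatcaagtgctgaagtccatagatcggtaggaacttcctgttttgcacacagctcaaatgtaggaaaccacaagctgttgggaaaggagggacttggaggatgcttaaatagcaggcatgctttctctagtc
C1qb: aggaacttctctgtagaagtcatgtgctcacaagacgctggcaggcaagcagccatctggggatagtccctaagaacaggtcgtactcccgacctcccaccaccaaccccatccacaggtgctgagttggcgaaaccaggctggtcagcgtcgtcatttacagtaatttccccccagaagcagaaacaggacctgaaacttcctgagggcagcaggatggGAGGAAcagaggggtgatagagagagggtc

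Among all 12281 tested genes, those most like each marker across the 18 hearts, by Pearson r of log2 CPM with group means removed, are given here with the highest first. For Csf1r they were Tspan12 (r = 0.91), Mrc1 (0.85) and F13a1 (0.83), the last a coagulation factor subunit carried by resident macrophages. Mrc1 was most like Oxct1 (0.86), F13a1 (0.85) and Csf1r (0.85), and Cd163 most like Hpgds (0.91), Abcg2 (0.90) and Lgals3bp (0.87). For Lyz2 they were Oxct1 (0.94), an enzyme of ketone body use, Mgst1 (0.93) and the complement component C3 (0.90). C1qb was most like Ms4a6b (0.91), Fbln2 (0.88) and 2210404O09Rik (0.86), C1qa most like Neu3 (0.82), Rnf138 (0.82) and Vasn (0.77), and C1qc most like Cybb (0.82), the catalytic subunit of the phagocyte oxidase, Ehhadh (0.80) and Tpst1 (0.79). Ptprc was most like the inhibitory Fc receptor Fcgr2b (0.81), Reep3 (0.79) and Fn1 (0.78). Cd68 was most like Fntb (0.83), Fance (0.81) and Abca7 (0.78), and Lsp1 most like Dars (0.87), Flt4 (0.81) and Araf (0.78). These are the highest of 12280 values for each gene and carry no test.

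Other genes were read from 17 lists, which covered macrophages, other leukocytes and their pathways as well as red cells, platelets and the other cells of the ventricle, and held 217 further genes in the count table, 136 of them tested. edgeR called 0 of the 136 in each comparison, DESeq2 0 and limma on log2(FPKM + 0.1) 0, while edgeR without the filter on low counts called the erythrocyte gene Alas2 in PLCb1a against blank (FDR 0.0355). At an unadjusted p below 0.05, 10 were higher and 4 lower in PLCb1b against blank, 11 higher and 9 lower in PLCb1a against blank, and 4 higher and 7 lower in PLCb1b against PLCb1a. These are 10.3%, 14.7% and 8.09% of the 136, where 7.43%, 8.81% and 4.56% of all 12281 tested genes passed. These counts are from edgeR. At the same unadjusted threshold DESeq2 gave 12, 15 and 7 of the listed genes, and limma on log2(FPKM + 0.1) gave 10, 13 and 7. The shares of all genes under those tools are not given here. The lists were chosen with earlier results known and no test of a list was made, so the counts per list are a description. Beside them stand the shares of all tested genes, 3.95% higher and 3.48% lower in PLCb1b against blank, 4.52% and 4.29% in PLCb1a against blank, and 2.25% and 2.31% in PLCb1b against PLCb1a.

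Of 20 further genes of resident macrophages 19 were tested, and in PLCb1a against blank 0 were higher and 4 lower at an unadjusted p below 0.05, where 4.29% of all tested genes were lower. In PLCb1b against blank 1 was higher and 2 lower, and in PLCb1b against PLCb1a 1 was higher and 0 lower. The median log2 fold changes of this list were -0.07 in PLCb1a against blank, -0.01 in PLCb1b against blank and 0.10 in PLCb1b against PLCb1a. Pf4, a chemokine of platelets and resident macrophages, had a log2 fold change of -0.34 (SE 0.131) in PLCb1b against blank, with an edgeR p of 0.0162 and FDR of 0.567, and -0.33 (SE 0.131, edgeR p 0.0182, FDR 0.445) in PLCb1a against blank, from the same 6 blank hearts, while the 2 variants differed by -0.01. Gas6, a ligand of the receptors by which macrophages take up dying cells and the most abundant gene of this list at 19.5 FPKM, had 0.14 (SE 0.0464) in PLCb1b against PLCb1a, with an edgeR FDR of 0.959.

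All 22 genes shared by leukocytes and myeloid cells were tested, of which 1 was higher and 1 lower in PLCb1a against blank, 1 higher and 0 lower in PLCb1b against PLCb1a, and 0 in PLCb1b against blank, at an unadjusted p below 0.05. Cybb had a log2 fold change of 0.35 (SE 0.138, edgeR FDR 0.442) in PLCb1a against blank, and Cd48, an adhesion molecule of leukocytes, 0.57 (SE 0.223, edgeR FDR 1) in PLCb1b against PLCb1a. Cyba, the partner of Cybb, was the most abundant at 6.88 FPKM.

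Of 12 genes around the receptor Csf1r 10 were tested, 1 higher in PLCb1b against blank and 1 lower in PLCb1a against blank at an unadjusted p below 0.05. The ligand Csf1 had a log2 fold change of -0.25 (SE 0.0880) in PLCb1a against blank, with 1 of 6 PLCb1a hearts above the blank median, an edgeR p of 0.00842 and an FDR of 0.374. The transcription factor Runx1 had 0.36 (SE 0.151, edgeR FDR 0.603) in PLCb1b against blank, and Grb2, an adaptor of receptor kinases, was the most abundant at 7.97 FPKM.

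Of 21 other complement genes 19 were tested, with 0 past an unadjusted p of 0.05 in PLCb1b against blank, 1 higher and 2 lower in PLCb1a against blank, and 0 higher and 3 lower in PLCb1b against PLCb1a. C7, a component of the membrane attack complex, had a log2 fold change of -0.54 (SE 0.214, edgeR FDR 0.439) in PLCb1a against blank. Cfd, the protease factor D, had -1.19 (SE 0.466, edgeR FDR 1) in PLCb1b against PLCb1a, but -0.65 without PLCb1a heart 21, -1.79 without PLCb1b heart 8 and -0.52 on log2(FPKM + 1). Its value in PLCb1a against blank was 0.97 (SE 0.456, edgeR FDR 0.545).

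For antigen presentation and dendritic cells 9 of 15 genes were tested and 0 passed an unadjusted p of 0.05 in any comparison by edgeR. The lowest were Irf4 at 0.107 and Zbtb46 at 0.108, both transcription factors and both in PLCb1a against blank, and the most abundant was Cd74, the invariant chain, at 26.5 FPKM. For inflammatory mediators 14 of 29 were tested, with 3 higher and 1 lower in PLCb1b against blank, 2 higher and 0 lower in PLCb1a against blank, and 0 in PLCb1b against PLCb1a. Retnla, a secreted product of alternatively activated macrophages, had a log2 fold change of 0.67 (SE 0.159) in PLCb1a against blank, above the blank median in 6 of 6 hearts, with an edgeR p of 0.000281 and an FDR of 0.123, and 0.45 (SE 0.163, edgeR FDR 0.567) in PLCb1b against blank. Cxcl9, a chemokine that attracts T cells, had 0.51 (SE 0.201, edgeR FDR 0.567) in PLCb1b against blank, and Cxcl12 was the most abundant at 16.7 FPKM.

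Most markers of other leukocytes did not pass the filter on low counts. Of 18 genes of T and natural killer cells 0 passed it, and the most abundant, Cd247, averaged 5.33 counts per heart. Of 11 genes of B and plasma cells 1 was tested, Bank1 (log2 fold change 0.33, SE 0.209, edgeR FDR 0.676 in PLCb1a against blank). Of 7 mast cell genes 2 were tested, 1 of them higher in PLCb1b against PLCb1a at an unadjusted p below 0.05, Kit with 0.28 (SE 0.135, edgeR FDR 1) in PLCb1b against PLCb1a and Cpa3 with 0.25 (SE 0.296, edgeR FDR 0.884) in PLCb1b against blank. For monocytes and neutrophils 15 of 16 genes were found in the table and 3 tested, 1 of them lower in PLCb1b against PLCb1a at an unadjusted p below 0.05, among them Csf3r, the receptor for granulocyte colony stimulating factor, with -0.88 (SE 0.364, edgeR FDR 1) and Lcn2 with 0.40 (SE 0.223, edgeR FDR 1), both in PLCb1b against PLCb1a. The value of Csf3r was -0.44 without PLCb1a heart 7, and the summed level of the 15 genes was 12.4 CPM in that heart and 2.32 to 6.58 in the other 5 PLCb1a hearts. On log2(FPKM + 1) the value of Csf3r was -0.05, but the gene averaged 0.152 FPKM, and the added 1 shrinks differences at that level. Elane, a protease of neutrophil granules, had 0 counts in 18 of 18 hearts. Ly6c2 of the same list averaged 2.58 FPKM but 0.5 counts per heart, so the 2 tables treat its reads differently.

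Blood cells and the other cells of the ventricle were read in the same way. The summed level of the 7 erythrocyte genes in the table was 9.36 CPM ± 2.14 in blank hearts, 15 ± 3.72 in PLCb1a hearts and 11.1 ± 3.23 in PLCb1b hearts (SD, n = 6). Of these 2 were tested, both higher in PLCb1a against blank and 1 lower in PLCb1b against PLCb1a at an unadjusted p below 0.05. In PLCb1a against blank Alas2, the haem synthesis enzyme of red cells, had a log2 fold change of 0.63 (SE 0.162, edgeR FDR 0.186, and 0.0355 without the filter, where it was called). Slc4a1, the anion exchanger of red cells, had 0.91 (SE 0.346, edgeR FDR 0.421) in the same comparison, and 0.43 without PLCb1a heart 7. On log2(FPKM + 1) Slc4a1 had 0.18, but it averaged 0.279 FPKM, and the added 1 shrinks differences at that level. The globin genes Hba-a1, Hba-a2, Hbb-b1 and Hbb-b2 had 0 counts in every heart while Hba-a2 averaged 180.8 FPKM, so the counts do not measure them. The 5 platelet genes summed to 5.48 CPM ± 0.328, 6.58 ± 3.08 and 4.96 ± 1.51 in blank, PLCb1a and PLCb1b hearts (SD, n = 6), with Itga2b at 1.0 (SE 0.315, edgeR FDR 0.319) and Ppbp at 1.31 (SE 0.483, edgeR FDR 0.392) in PLCb1a against blank. The higher mean in PLCb1a hearts came from heart 7 at 11.7 CPM and heart 9 at 8.98, the other 4 lying between 4.09 and 5.49, and the medians were 5.53, 5.14 and 5.13 in the same order. Without PLCb1a heart 7 the value of Ppbp was 0.72. On log2(FPKM + 1), where the added 1 shrinks the differences of low genes, Ppbp had 0.50 and Itga2b 0.18. Itga2b averaged 0.162 FPKM, and its value from counts ran from 0.77 to 1.25 with 1 heart left out. In PLCb1b against PLCb1a Itga2b had -0.80 (SE 0.303), Ppbp -0.99 (SE 0.457) and Alas2 -0.41 (SE 0.158), each at an edgeR FDR of 1. Of the 3 platelet genes tested, Pf4 among them and with the highest FPKM of the list, 8.37, 2 were higher and 1 lower in PLCb1a against blank, 0 higher and 1 lower in PLCb1b against blank, and 0 higher and 2 lower in PLCb1b against PLCb1a at an unadjusted p below 0.05. The part of blood in the values of Lsp1 was not tested.

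Of 8 fibroblast genes, all tested, 2 were higher in each comparison with blank at an unadjusted p below 0.05. Lum, a proteoglycan of collagen fibrils, had 0.23 (SE 0.0672, edgeR FDR 0.354) and Col3a1 0.19 (SE 0.0626, edgeR FDR 0.463) in PLCb1b against blank, and 0.23 and 0.17 (edgeR FDR 0.292 and 0.411) in PLCb1a against blank. Of 8 endothelial genes 2 were higher in PLCb1b against blank and 1 in PLCb1a against blank, with Cdh5, the endothelial cadherin, at 0.14 (SE 0.0511, edgeR FDR 0.488), where PLCb1a against blank gave 0.11 (edgeR FDR 0.53), and Vwf at 0.17 (SE 0.0739, edgeR FDR 0.617) in PLCb1b against blank. Of 7 mural cell genes 1 was higher in PLCb1b against blank and 1 in PLCb1b against PLCb1a, and Pdgfrb had the lowest p, with 0.17 (SE 0.0533, edgeR FDR 0.407) in PLCb1b against blank and 0.12 (SE 0.0531, edgeR FDR 1) in PLCb1b against PLCb1a, followed by Cspg4 with 0.16 (SE 0.0840, edgeR FDR 0.696). Of 10 cardiomyocyte genes 1 was lower in each comparison with blank, and Actc1 had -0.12 (SE 0.0486, edgeR FDR 0.473) in PLCb1a against blank, -0.10 (SE 0.0486, edgeR FDR 0.651) in PLCb1b against blank, and Ryr2 -0.08 (SE 0.0468, edgeR FDR 1) in PLCb1b against PLCb1a. Of 5 adipocyte genes 1 was tested, Fabp4, with -0.05 (SE 0.0589, edgeR FDR 0.896) in PLCb1b against blank, which ran from -0.0954 without PLCb1b heart 8 to -0.0047 without PLCb1b heart 4. The most abundant genes of these lists were Dcn at 135.8 FPKM, Cdh5 at 22.4, Rgs5 at 76.3, Myl2 at 5574 and Fabp4 at 280.7.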

How the data were processed

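RNA was measured in 18 hearts, 6 per vector group, grouped by their labels. The authors aligned reads with TopHat (2.0.10 in the submitters' processing notes) to mm10 and deposited counts per gene made with HTSeq in union mode with strand. They also deposited FPKM values, for which Cufflinks 2.1 is listed without a role. Positions in the deposited annotation were used for gene coordinates.

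Counts were scaled by TMM, filtered with filterByExpr (count minimum 10, total minimum 15) and fitted in edgeR 4.0.16 (glmQLFit with its default options, glmQLFTest) as 1 model of 3 groups without covariates, tested on simulated data beforehand. Genes were called at FDR below 0.1. DESeq2, limma, other scalings and filters and leaving out each heart were alternatives. After the first fit, the calls over all genes were compared under 20 combinations of edgeR options (library sizes, robust estimates, older or newer method, dispersions), because an earlier analysis of these data had counted more genes in PLCb1a against blank. These gave 10 to 13, 10 to 18 and 0 to 1 genes called in PLCb1b against blank, PLCb1a against blank and PLCb1b against PLCb1a. The fit was then set to robust estimates for a time, the values of the marker genes under it were seen, and it was set back to the default options of the first fit. None of the 20 called a marker gene.

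The marker genes and lists were chosen with earlier results of these data known. From each list the text names genes called in any comparison, the 2 with the lowest p and the one with the highest FPKM, and for each marker the 3 most correlated genes. One gene that this rule names is not reported here. Gene names with older symbols were matched through RefSeq synonyms. No pair of hearts in a group differed by less than sampling noise, with chi-square per degree of freedom between 1.83 and 9.48. p-values measure the spread between hearts. Analyses used R 4.3.3, Python and scipy.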

Additional observations from a re-analysis of the deposited data

Results flagged for a closer look

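Of 30 sets of 6 hearts (10 genes in 3 groups), 2 held a heart whose gap to the nearest other heart, divided by the range of the set, exceeded the 95% critical value of Dixon's test for 6 samples. Chance flags about 1 in 20 such sets. For Cd68, blank heart 33 measured 2.46 CPM, the next blank heart 1.94 and the lowest 1.73, a ratio of 0.708. For Ptprc, blank heart 30 measured 7.79 CPM, the next 5.89 and the lowest 4.93, a ratio of 0.665.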

How the results depend on the processing

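The number of marker genes called was 0 in PLCb1b against blank and in PLCb1b against PLCb1a under every setting tried, and 0 in PLCb1a against blank under every setting but DESeq2, which called 1, Lsp1. The median log2 fold change of the marker genes kept its sign under every setting with all hearts. With 1 heart left out it ran from -0.0966 to 0.0173 in PLCb1b against blank, above 0 without PLCb1b heart 17 or blank heart 33, from -0.1226 to -0.0312 in PLCb1a against blank, nearest 0 without blank heart 33, and from -0.0374 to 0.0672 in PLCb1b against PLCb1a, below 0 without PLCb1b heart 8 or PLCb1a heart 21. The edgeR FDR of Lsp1 in PLCb1a against blank was 0.111 to 0.311 when 1 heart was left out, and its log2 fold change 0.28 to 0.38.

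The number of all genes called depended on the settings. In PLCb1b against blank, where 12 were called, DESeq2 called 24, the fit without a filter 26, the fit of only the 2 groups compared 6, limma on either FPKM scale 5 and a threshold of 0.05 called 6. In PLCb1a against blank, where 10 were called, these gave 33, 32, 6, 6 and 2. The edgeR options chosen after seeing the data moved this count too, to 17 with robust estimates, 16 with the newer method and 18 with both, whichever library sizes and dispersions were used, so a robust fit calls 17 genes where the default calls 10. In PLCb1b against PLCb1a, where 1 was called, the count was 2 without a filter, 2 with only the 2 groups, 2 without mitochondrial genes, and 0 with limma or robust estimates. Leaving out 1 heart gave 4 to 17, 2 to 20 and 1 to 2 genes in the 3 comparisons. In PLCb1b against blank the count moved over 1.5 times without blank heart 33 (7) or 34 (4) or PLCb1b heart 4 (4), 6 (7) or 17 (6). In PLCb1a against blank it did so without blank heart 26 (6), 30 (2), 32 (6), 33 (16) or 34 (2), PLCb1a heart 7 (2), 9 (6), 11 (2), 13 (20) or 14 (4), or PLCb1b heart 6 (2), 8 (17), 10 (2) or 16 (17). In PLCb1b against PLCb1a it was 2 without blank heart 26, 30 or 32, PLCb1a heart 14 or PLCb1b heart 8 or 17. The number of related pairs, 14 of 45, became 26 on log2(FPKM + 0.1) and 15 with group means kept, and by Spearman's rho 15 became 26 and 10. The causes were not tested.

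Sign changes concerned values that were not called. On log2(FPKM + 0.1) and log2(FPKM + 1), Lsp1 in PLCb1b against blank, 0.12 from counts, became -0.0162 and -0.0146, C1qb in PLCb1b against PLCb1a -0.0249 and -0.0223, Cyba in PLCb1a against blank -0.0025 and -0.0016, and Myl2 in PLCb1b against blank -0.0113 and -0.0113. With 1 heart left out, log2 fold changes in PLCb1b against blank ran from -0.0171 to 0.1068 for Csf1r, -0.0648 to 0.0367 for Mrc1, -0.1284 to 0.0026 for C1qc and -0.0186 to 0.0245 for Myl2. In PLCb1a against blank they ran from -0.0171 to 0.0627 for Csf1r, -0.0335 to 0.0868 for Cyba and -0.0353 to 0.1436 for Cd74. In PLCb1b against PLCb1a they ran from -0.033 to 0.09 for Csf1r, -0.0419 to 0.1217 for Cd163, -0.0158 to 0.0814 for Mrc1, -0.0161 to 0.1607 for Lyz2, -0.055 to 0.0486 for C1qa, -0.0605 to 0.0652 for C1qb and -0.1519 to 0.0012 for Ptprc. PLCb1b heart 8 was among the hearts whose removal changed the sign in PLCb1b against PLCb1a for Csf1r, Cd163, Mrc1, Lyz2, C1qa and C1qb. Values that kept their sign but moved over 1.5 times with 1 heart left out ran, in PLCb1b against blank, from -0.2008 (without PLCb1b heart 8) to -0.0361 (PLCb1b heart 6) for Cd163, -0.171 (PLCb1b heart 8) to -0.024 (PLCb1b heart 6) for Lyz2, -0.1864 (PLCb1b heart 8) to -0.0341 (blank heart 33) for C1qb, 0.0265 (blank heart 26) to 0.1577 (blank heart 30) for Ptprc and 0.0779 (PLCb1b heart 16) to 0.1767 (blank heart 26) for Lsp1. PLCb1a against blank gave -0.1055 for Cd163 and -0.1082 for C1qa without PLCb1a heart 21, -0.0561 for C1qb and -0.0063 for Mrc1 without blank heart 33, -0.0908 for Mrc1 without blank heart 36, -0.2399 for Lyz2 and 0.0648 for Ptprc without PLCb1a heart 7, and 0.2555 for Ptprc without blank heart 30. PLCb1b against PLCb1a gave -0.1323 to -0.0071 for Cd68 (PLCb1a hearts 14 and 9) and 0.0807 for C1qc without PLCb1b heart 8. On log2(FPKM + 1), in PLCb1b and PLCb1a against blank, Cd68 was 0.0471 and 0.115, Csf1r 0.0169 and 0.0066 and Ptprc 0.0243 and 0.0487. Lsp1 was 0.1808 in PLCb1a against blank on that scale. Without blank heart 30 the value of Csf1 in PLCb1a against blank was -0.1588, and without PLCb1a heart 7 that of Irf4 was -0.3012. Cpa3 in PLCb1b against blank ran from 0.094 without PLCb1b heart 8 to 0.3813 without blank heart 33, and Cspg4 there was 0.0924 without blank heart 30. On log2(FPKM + 1), where the added 1 shrinks the differences of low genes, Cd48 was 0.2493, Cybb 0.1961, Runx1 0.0814, C7 -0.3583, Irf4 -0.0508, Lcn2 0.1548, Bank1 0.085, Kit 0.1219, Cpa3 0.0739, Cxcl9 0.1702 and Cspg4 0.0993. The same shrinkage applies to the values of Cfd, Csf3r, Slc4a1, Itga2b and Ppbp given above on that scale. Alas2 in PLCb1a against blank was called by edgeR without a filter, at an FDR of 0.0355, and its adjusted p ran from 0.0355 to 0.502 over the settings with all hearts. DESeq2 gave no adjusted p for Cd68 and Ptprc in PLCb1a against blank. No paired analysis was possible because the heart numbers are not shared between groups.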
